A study of Mus musculus with 6 samples.

Results

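Lipolysis is the stepwise breakdown of the triglycerides that cells store in lipid droplets. Adipose triglyceride lipase (ATGL, gene Pnpla2) opens the pathway with its co-activator CGI-58 (Abhd5), hormone-sensitive lipase (Lipe) cleaves the diglycerides that result, and monoglyceride lipase (Mgll) releases the last fatty acid. G0S2 and HILPDA (Hilpda) are proteins that bind ATGL and inhibit it, DDHD2 is a triglyceride lipase known mainly from neurons, and the perilipins (Plin2, Plin3 and Plin4) coat the droplet and limit the access of lipases to it. Podocytes, the epithelial cells that cover the glomerular capillaries, hold few droplets in health and gain them in several kidney diseases.

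These 10 genes were taken by name from the 57132 genes of a read count table of immortalized murine podocytes, after the identifiers had been matched to GENCODE M21 symbols. The table holds 3 samples of the line IMWT, with the genotype Col4a3+/+ (WT podocytes), and 3 samples of the line IMAS, in which Col4a3 is knocked out as a model of Alport syndrome (AS podocytes). Per the labels both lines come from the kidney of male mice aged 8 weeks. By the same labels the cells were kept untreated in DMEM/F12 with 10% fetal bovine serum and 20 U/mL interferon gamma at 33 °C. They were then differentiated at 37 °C for 14 days. The methods of the study give another medium, a shorter differentiation and a lower dose of interferon gamma, which was left out at 37 °C. Both lines carry H-2Kb-tsA58, a transgene in which an interferon-inducible promoter drives a temperature-sensitive large T antigen. Each genotype was 1 cell line, so that the knockout and the line cannot be told apart. The samples are labelled as sets 1 to 3 without saying whether a set was a separate culture, and the p-values therefore measure the spread between these samples, which may be technical. Lipolysis, triglycerides, fatty acids and proteins were not measured in these libraries, which give RNA levels only. In separate assays of its immortalized podocytes, the study reported more triglyceride lipolysis and more intracellular free fatty acids in AS than in WT cells. How the RNA levels bear on those assays was not tested.

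The libraries held between 45417221 and 54290968 counts. Col4a3 lay between 938 and 1272 CPM (counts relative to the library size after TMM scaling) in WT and between 61.2 and 82.9 CPM in AS samples, in the direction the labels give. Among podocyte markers, Nphs1 (nephrin), a defining gene of mature podocytes, was near 0, at or under 0.473 CPM in every sample, and Wt1 lay between 15.3 and 25.8 CPM in WT and between 1.44 and 3.14 CPM in AS samples. Of 8 adipocyte markers, 5 had a count, and their sum lay between 0.256 and 0.572 CPM in WT and between 0.200 and 0.525 CPM in AS samples. Lep, Cfd and Cidec were at 0 in every sample. Retn was at 0.297 and 0.285 CPM on average in WT and AS samples, with groups that overlapped. Fabp4 had 9 counts in each group, and Adipoq had 2 or 3 counts in each WT sample and 0 in the AS samples. The summed macrophage markers (4 of 5 with a count, Adgre1 at 0) lay between 11.6 and 15.4 CPM in WT and between 5.41 and 7.41 CPM in AS samples, and the summed mesangial markers (5 of 5 with a count) between 248 and 276 CPM in WT and between 124 and 126 CPM in AS samples. The 5 endothelial markers summed to 0.730 to 1.35 CPM in WT and 0.178 to 0.603 CPM in AS samples, and the 5 proximal tubule markers to 377 to 424 CPM in WT and 281 to 392 CPM in AS samples. Single genes carried the mesangial and macrophage sums. Pdgfrb held most of the mesangial sum, at 253 CPM on average in WT and 116 CPM in AS samples, while Gata3 was at 5.40 and 6.73 CPM and Des at 0.902 and 1.08 CPM. Csf1r held most of the macrophage sum, at 10.3 and 3.82 CPM, while Cd68 was at 2.10 and 2.06 CPM and Lyz2 at 0.498 and 0.431 CPM. Lrp2 and Aqp1 held most of the proximal tubule sum. Lrp2 was at 274 and 255 CPM on average in WT and AS samples, with groups that overlapped, and Aqp1 at 115 and 69.7 CPM. Cubn was at 5.31 and 5.40 CPM, Slc5a2 at 0.299 and 0.463 CPM, and Slc34a1 had 1 count in each group. The part of these shifts in the results on lipolysis genes was not tested. WT sample 1 stood further from WT samples 2 and 3 (chi-square per degree of freedom of 31.0 and 32.9) than these did from each other (7.04).

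AS and WT podocytes differed in most of the lipolysis genes, in both directions and mostly by small amounts. The RNAs of ATGL (Pnpla2), its co-activator CGI-58 (Abhd5), monoglyceride lipase (Mgll) and the main droplet coat Plin2 were lower in AS podocytes. Those of Ddhd2 and Plin4 were higher, and Lipe, Hilpda and Plin3 did not pass the test. G0s2, the inhibitor of ATGL, had no count at all. Among the 9 members that could be tested, 6 were called (4 lower and 2 higher in AS podocytes). Genes were called where the Benjamini-Hochberg adjusted p of the quasi-likelihood test in edgeR was below 0.05, and by that rule 40.1% of all 16263 genes tested were called, 20.4% of the tested genes as higher and 19.6% as lower. The samples of the 2 lines did not overlap in 8 of the 9 members, 4 in each direction, beside 52.3% of all genes tested. Of the 6 called members, 4 had a log2 fold change under 0.5 in size, and Mgll alone exceeded a fold change of 2. Relative to the median of its chromosome, Mgll was at -0.86 on the log2 scale and no longer exceeded it. The median log2 fold change of the members was -0.02, beside 0.0061 over all genes tested. These are bulk samples, in which fewer cells of a type and less RNA per cell cannot be told apart.

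**Figure D1:**
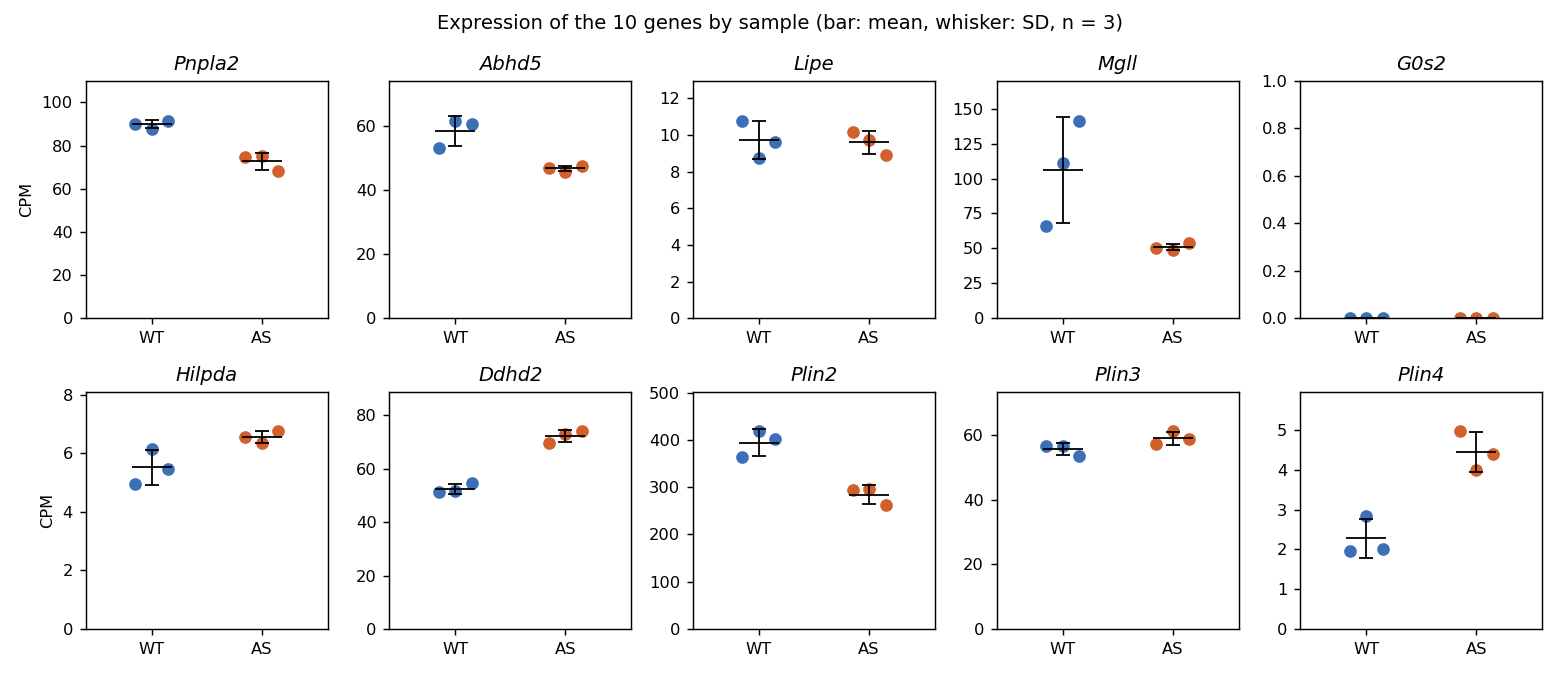
CPM of each of the 10 lipolysis and droplet coat genes in the 3 WT and 3 AS samples, one panel per gene with its own linear axis in CPM; points are samples and bars the mean with the SD. The AS points lie below all WT points for Pnpla2, Abhd5, Mgll and Plin2, above them for Ddhd2, Plin4, Hilpda and Plin3, among them for Lipe, and G0s2 is at 0 throughout.

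Pnpla2 (ENSMUSG00000025509.16, chromosome 7), which encodes the lipase that starts triglyceride breakdown, was at 90.1, 87.9 and 91.6 CPM in WT and at 74.8, 75.0 and 68.2 CPM in AS samples. All 3 AS samples lay below all 3 WT samples, and neither group was spread widely. The means were 89.9 ± 1.85 (SD, n = 3) and 72.6 ± 3.87 CPM (SD, n = 3), and AS differed from WT by -0.31 on the log2 scale (standard error 0.057, adjusted p = 0.00233, edgeR), or 0.808 times the WT level. Abhd5 (ENSMUSG00000032540.17, chromosome 9), whose product CGI-58 activates ATGL at the droplet surface, was at 53.3, 61.7 and 60.8 CPM in WT and at 47.1, 45.8 and 47.4 CPM in AS samples. Here too the AS samples were below all WT samples, although WT sample 1 came within a few CPM of them. On the log2 scale it changed by -0.32 (standard error 0.069, adjusted p = 0.00460, edgeR), 0.798 times the WT level. A stretch of 15.95% of the exon bases of Abhd5 lies opposite the antisense gene A730085K08Rik, which held 33 counts in WT and 24 in AS samples, and whether the counting used strand is not given in the sources used here. Lipase RNA and co-activator RNA both fell. The ratio of Abhd5 to Pnpla2 per length came to 0.331 ± 0.0286 for WT and 0.327 ± 0.0227 for AS podocytes (SD, n = 3 each), with groups that overlapped.

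Of the inhibitors of ATGL, G0s2 (ENSMUSG00000009633.4, chromosome 1) had 0 counts in all 6 samples. With 0 counts in a whole group the level could still be as high as 0.0209 CPM (WT) or 0.0198 CPM (AS), taking 3 counts per group as the limit and covering counting error only, so that no difference could be seen at this depth. Hilpda (ENSMUSG00000043421.9, chromosome 6), the inhibitor known to be induced by hypoxia, was measured at 4.97, 6.15 and 5.46 CPM in WT and at 6.57, 6.36 and 6.76 CPM in AS samples. The AS samples lay above all WT samples by a narrow margin. The means of 5.53 ± 0.594 (SD, n = 3) and 6.56 ± 0.199 CPM (SD, n = 3) gave a log2 fold change of 0.25 with a 95% interval from -0.04 to 0.54 (adjusted p = 0.157, edgeR), which did not pass. The genes of chromosome 6 had a median log2 fold change of -0.20, and relative to that median Hilpda was at 0.45 (adjusted p = 0.0246, edgeR). The ratio of Hilpda to Pnpla2 per length was 0.151, 0.192 and 0.163 in WT and 0.241, 0.232 and 0.272 in AS samples, so that every AS sample held more inhibitor RNA per lipase RNA than any WT sample. The means were 0.169 ± 0.0208 (SD, n = 3) and 0.248 ± 0.0206 (SD, n = 3), and this ratio is given as a description, with no test.

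The lipases that act after or beside ATGL did not share a direction. Lipe (ENSMUSG00000003123.16, chromosome 7), the hormone-sensitive lipase, was at 10.8, 8.74 and 9.62 CPM in WT and at 10.1, 9.71 and 8.92 CPM in AS samples, with groups that overlapped fully. Its log2 fold change was -0.02 with a 95% interval from -0.28 to 0.24 (adjusted p = 0.910, edgeR), an AS to WT ratio between 0.824 and 1.18, and its sign turned to 0.06 without WT sample 1. Of its exon bases, 15.6% lie opposite the antisense gene 4732471J01Rik, which held 149 counts in WT and 117 in AS samples, beside 1400 and 1447 counts for Lipe. Mgll (ENSMUSG00000033174.18, chromosome 6), which also breaks down the endocannabinoid 2-arachidonoylglycerol, was at 65.9, 111 and 142 CPM in WT and at 50.1, 49.2 and 53.6 CPM in AS samples. The AS samples were close together and below all WT samples, while the WT samples were spread over more than a factor of 2, with the lowest in WT sample 1, the library that stood apart. The means were 106 ± 38.0 (SD, n = 3) and 51.0 ± 2.33 CPM (SD, n = 3), and the change of -1.06 on the log2 scale (standard error 0.22, adjusted p = 0.00391, edgeR) was the largest among the members. It was -1.31 without WT sample 1 and -0.80 without WT sample 3, and it was called in both. Relative to the chromosome 6 median of -0.20, Mgll was at -0.86 and still passed (adjusted p = 0.0138, edgeR). Its change was then smaller in size than that of Plin4 (0.94), as it also was without WT sample 3 (0.89 for Plin4).

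Ddhd2 (ENSMUSG00000061313.11, chromosome 8) was the lipase gene among the members that rose. Its level was 51.3, 51.7 and 54.7 CPM in WT and 69.7, 73.0 and 74.1 CPM in AS samples. All AS samples were well above all WT samples. The change was 0.46 on the log2 scale (standard error 0.056, adjusted p = 0.000210, edgeR), 1.38 times the WT level. The 616 genes measured on chromosome 8 were themselves shifted upward, at a median of 0.32 on the log2 scale, and relative to that median Ddhd2 was at 0.14 and no longer passed (adjusted p = 0.0963, edgeR).

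Among the coats, Plin2 (ENSMUSG00000028494.13, chromosome 4), the perilipin found on droplets in most cells, was at 363, 418 and 402 CPM in WT and at 294, 297 and 262 CPM in AS samples. Every AS sample was below every WT sample. The means were 394 ± 28.5 (SD, n = 3) and 284 ± 19.6 CPM (SD, n = 3), and the change was -0.47 on the log2 scale (standard error 0.075, adjusted p = 0.000997, edgeR), or 0.721 times the WT level. Chromosome 4 had a median of -0.16, and relative to it Plin2 was at -0.31 and still passed (adjusted p = 0.0115, edgeR). Plin3 (ENSMUSG00000024197.11, chromosome 17), a coat that moves between cytosol and new droplets, was at 56.8, 56.6 and 53.6 CPM in WT and at 57.1, 61.2 and 58.8 CPM in AS samples, separated by less than 1 CPM at the nearest. Its log2 fold change of 0.09 with a 95% interval from -0.04 to 0.21 (adjusted p = 0.264, edgeR) did not pass. Plin4 (ENSMUSG00000002831.16, chromosome 17), a coat best known from adipose tissue and muscle, was low throughout, at 1.97, 2.84 and 2.02 CPM in WT and 4.97, 3.99 and 4.40 CPM in AS samples. The AS samples lay above all WT samples. The difference was 0.97 on the log2 scale (standard error 0.19, adjusted p = 0.00336, edgeR), 1.95 times the WT level, from 326 counts in WT and 671 counts in AS samples. A run of 17 exon bases of Plin4 lies opposite Hdgfl2, a gene with 10368 counts in WT and 10517 counts in AS samples, and reads from the 2 genes cannot be told apart there if strand was not used.

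**Figure D2:**
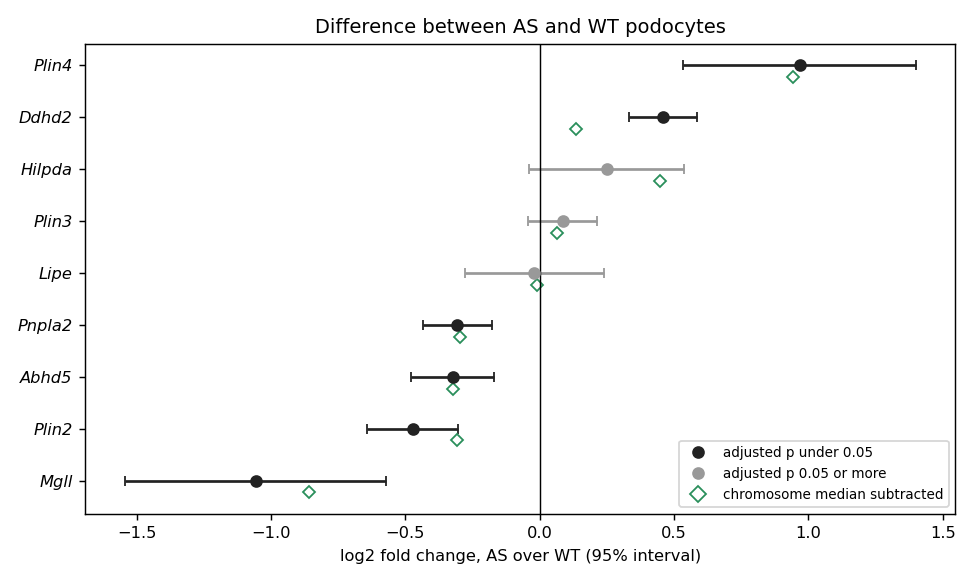
Log2 fold change of AS over WT podocytes for the 9 tested members, with 95% intervals from edgeR's quasi-likelihood fit. Black points passed the test, grey points did not, green diamonds are the values after the median of the gene's chromosome was subtracted, and the vertical line marks no change. Mgll lies furthest to the lower side and Plin4 furthest to the higher side, and the intervals of Lipe, Hilpda and Plin3 cross 0.

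The promoters of 4 members are shown because these genes stand for the different outcomes: a lipase and a coat that fell, a coat that rose, and an inhibitor that did not pass. The windows are RefSeq sequences on GRCm38.p6 from 250 bases before to 50 bases after the start, read 5′ to 3′ on the strand of the gene. Capitals mark any match, on either strand, to ACGTG (the core bound by hypoxia-inducible factors), CACGTG (the E-box, which contains ACGTG) or AGGTCA (the nuclear receptor half-site). They lie at chr7:141454938-141455237 on the plus strand (Pnpla2), chr4:86670010-86670309 on the minus strand (Plin2), chr6:29272376-29272675 on the plus strand (Hilpda, the later of its 2 listed starts) and chr17:56109733-56110032 on the minus strand (Plin4).
Pnpla2: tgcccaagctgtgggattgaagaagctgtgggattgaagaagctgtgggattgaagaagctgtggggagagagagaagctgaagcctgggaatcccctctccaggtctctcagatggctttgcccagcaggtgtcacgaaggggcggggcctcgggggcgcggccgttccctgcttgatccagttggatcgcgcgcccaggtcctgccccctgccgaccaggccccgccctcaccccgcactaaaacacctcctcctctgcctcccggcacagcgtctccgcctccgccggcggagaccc
Plin2: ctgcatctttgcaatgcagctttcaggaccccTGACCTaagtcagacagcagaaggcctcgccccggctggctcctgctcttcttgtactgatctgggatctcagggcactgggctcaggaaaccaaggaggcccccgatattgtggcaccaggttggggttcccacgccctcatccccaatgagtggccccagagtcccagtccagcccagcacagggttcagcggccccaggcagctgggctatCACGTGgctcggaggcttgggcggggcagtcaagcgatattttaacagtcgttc
Hilpda: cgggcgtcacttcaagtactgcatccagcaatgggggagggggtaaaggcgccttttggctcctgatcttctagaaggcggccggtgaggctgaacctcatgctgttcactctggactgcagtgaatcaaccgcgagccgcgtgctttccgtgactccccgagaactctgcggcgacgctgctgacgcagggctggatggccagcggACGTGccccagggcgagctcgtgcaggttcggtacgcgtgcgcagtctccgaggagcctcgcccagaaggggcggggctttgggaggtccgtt
Plin4: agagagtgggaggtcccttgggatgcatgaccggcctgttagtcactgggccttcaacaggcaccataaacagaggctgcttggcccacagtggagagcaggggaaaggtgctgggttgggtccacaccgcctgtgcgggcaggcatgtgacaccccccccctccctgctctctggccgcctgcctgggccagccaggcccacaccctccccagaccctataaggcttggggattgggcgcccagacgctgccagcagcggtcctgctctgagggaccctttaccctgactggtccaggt

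The Plin2 window held all 3 motifs and the printed Hilpda window held ACGTG, while the window of the earlier Hilpda start held none of the 3, and none was found in the Pnpla2 and Plin4 windows. Of the 10 members, 9 had an entry, with 12 windows in all since Lipe, Mgll and Hilpda have several starts. ACGTG was in 5 of these windows, CACGTG in 3 and AGGTCA in 2. Of all 32851 mouse promoter windows of this length, 19.6% held ACGTG, 7.15% CACGTG and 16.3% AGGTCA. A match is a description of the letters in the window.

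Levels were compared between genes as CPM per kilobase of exon, a scale that allows for the length of the transcript. In WT podocytes Plin2 stood first at 112 CPM per kb, above 98.0% of the genes tested, followed by Pnpla2 at 29.8, Mgll at 20.9, Plin3 at 14.7, Abhd5 at 9.84, Ddhd2 at 7.36, Hilpda at 5.01, Lipe at 1.65 and Plin4 at 0.394 CPM per kb. Neighbours in this order did not overlap between samples except Mgll and Plin3. In AS podocytes Plin2 at 81.0 and Pnpla2 at 24.0 CPM per kb again led, Plin3 at 15.6 CPM per kb came next, and Ddhd2 at 10.1 and Mgll at 10.0 CPM per kb overlapped. Abhd5 at 7.85, Hilpda at 5.95, Lipe at 1.63 and Plin4 at 0.771 CPM per kb followed. ATGL RNA thus exceeded hormone-sensitive lipase RNA in every sample of both lines, on this scale. The places in the middle of the order depended on the length used. With the longest transcript in place of all exon bases, Abhd5 was above Plin3 in WT podocytes (18.6 and 15.3 CPM per kb). Ddhd2 at 17.0 CPM per kb followed Pnpla2 in AS podocytes but overlapped Plin3. By their means Plin2 and Pnpla2 stayed in front, and Hilpda, Lipe and Plin4 kept their places at the end. In WT podocytes Mgll ranged from 16.5 to 35.5 CPM per kb by this length. It overlapped Pnpla2 (33.5 to 34.9 CPM per kb) and Abhd5.

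**Figure D3:**
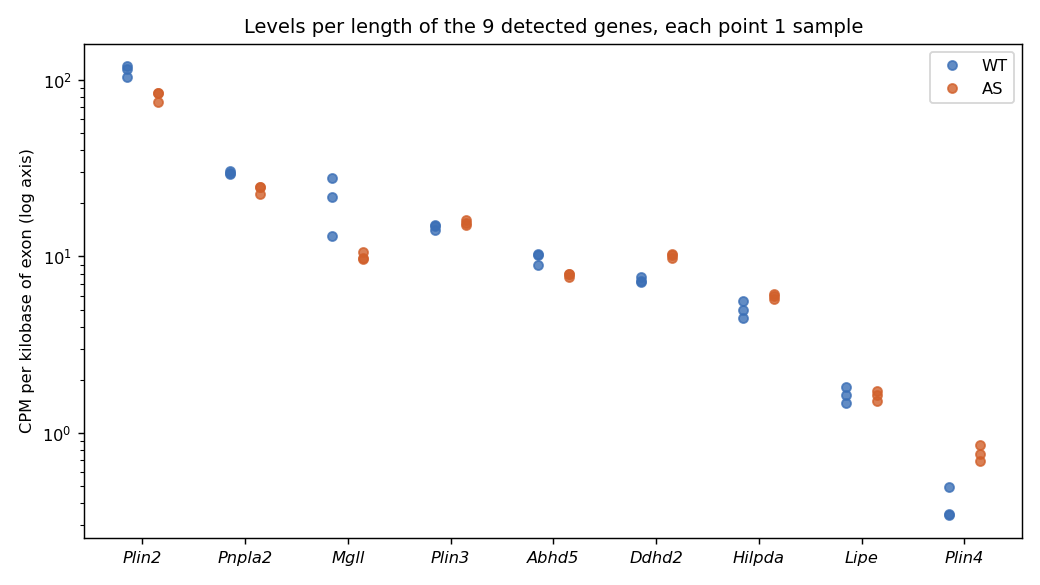
Level of each member in CPM per kilobase of exon on a log axis, for the 9 members with counts, with 1 point for each WT and AS sample. Plin2 is highest and Plin4 lowest in both lines.

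Plin2 made up most of the perilipin RNA in both lines. Of the summed CPM per kb of Plin1 to Plin5, Plin2 held 87.1%, 88.5% and 88.7% in WT and 84.0%, 83.4% and 82.1% in AS samples. Plin3 held 12.6%, 11.1% and 11.0% in WT and 15.1%, 15.9% and 17.1% in AS samples. The share of Plin2 was thus lower and that of Plin3 higher in every AS sample than in any WT sample, although the level of Plin3 itself did not pass the test. Plin4 held 0.308% ± 0.0508 of it in WT samples and 0.794% ± 0.0990 in AS samples (SD, n = 3 each), again without overlap. The sum over the perilipins was 127 ± 8.05 (SD, n = 3) for WT and 97.3 ± 5.70 CPM per kb (SD, n = 3) for AS podocytes, 0.764 times the WT sum. Plin1, the coat of the adipocyte droplet, had 1 count in each WT sample and 0 in the AS samples, and Plin5, the coat of oxidative tissues that tethers droplets to mitochondria, had 3 counts in WT sample 3 and 0 in the others. No fold is given for either.

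**Figure D4:**
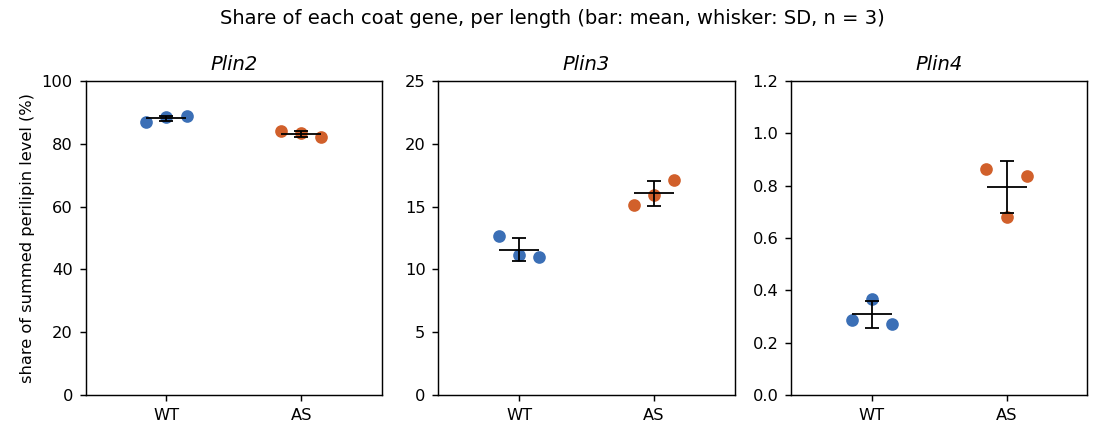
Share in percent of the summed CPM per kb of Plin1 to Plin5 held by Plin2, Plin3 and Plin4 in each of the 6 samples, one panel per gene with its own axis from 0, with the mean and SD. Plin2 is at 88.1% ± 0.908 in WT and 83.1% ± 0.994 in AS samples (mean ± SD, n = 3 each), and Plin3 at 11.6% ± 0.929 and 16.1% ± 0.991.

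The other genes of the pathway were read from 7 lists, which hold 154 genes in all, of which 128 could be tested and 66 were called (37 higher and 29 lower in AS podocytes). That is 51.6% of those tested, beside 40.1% of all genes tested, and the counts of each list are to be read against the 20.4% of all tested genes that were higher and the 19.6% that were lower. The 3 genes named from each list are those with the smallest adjusted p in edgeR's quasi-likelihood test. Fold changes of the list genes are given before any chromosome median was subtracted, and values relative to a median are marked. Among 23 other lipases and hydrolases, 15 were tested, 4 were higher and 3 lower, with a median log2 fold change of 0.03. Lipa, the acid lipase that breaks down droplet lipids in lysosomes, rose from 64.9 ± 3.16 to 117 ± 4.92 CPM (SD, n = 3 each). Its change on the log2 scale was 0.85 (adjusted p = 5.93e-06, edgeR), or 0.66 relative to the chromosome 19 median of 0.19. It thus moved opposite to the cytosolic lipase gene Pnpla2. Ddhd1, a phospholipase related to DDHD2, rose by 0.75 on the log2 scale, and Abhd12, a lysophospholipid and monoglyceride hydrolase, fell by 0.56. Abhd6, another monoglyceride hydrolase, was at 9.54 ± 0.424 and 9.49 ± 0.259 CPM (SD, n = 3 each) and did not pass (adjusted p = 0.960, edgeR). The diglyceride lipases that make the endocannabinoid which Mgll removes were both called higher, Dagla at a log2 fold change of 1.01 and Daglb at 0.45. Abhd6, Dagla and Daglb were chosen after their values were seen. Pnpla3, a close relative of ATGL, had 1 count over the WT samples and 8 counts over the AS samples.

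Among 24 other droplet proteins, 17 were tested, 5 were higher and 2 lower, with a median of -0.10. The 3 with the smallest adjusted p all rose: the droplet-bound dehydrogenase Hsd17b11 by 0.83, the sterol reductase Hsd17b7 by 0.63 and the methyltransferase-like Mettl7a1 by 0.70 on the log2 scale. Relative to the medians of their chromosomes, Hsd17b11 was at 0.63, Hsd17b7 at 0.64 and Mettl7a1 at 0.50. Of the Cide genes, which drive droplet fusion in fat and liver, Cidea had 3 counts in WT sample 1 alone and Cidec had 0 in all samples. Cideb had 22, 11 and 22 counts in WT and 1, 3 and 12 counts in AS samples, and it was at -1.86 on the log2 scale (standard error 0.67, adjusted p = 0.0505, edgeR), just outside the threshold. Without AS sample 3 it was at -3.13 and passed (adjusted p = 0.0141, edgeR), and without AS sample 1 it was at -1.45 and did not.

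The list of hormone and kinase control, which carries the signals that switch lipolysis on and off through cyclic AMP and protein kinase A, held 28 tested genes, of which 9 were higher and 9 lower. Gnai1, an inhibitory G protein subunit, fell from 55.8 ± 7.22 to 9.57 ± 1.46 CPM (SD, n = 3 each), a change on the log2 scale of -2.55 (adjusted p = 7.13e-07, edgeR). Prkar1b, a regulatory subunit of protein kinase A, fell from 28.1 ± 2.93 to 4.99 ± 0.142 CPM (SD, n = 3 each), at -2.50 (adjusted p = 1.68e-07, edgeR). Prkar2b, another regulatory subunit, rose from 12.8 ± 0.911 to 27.3 ± 1.37 CPM (SD, n = 3 each), at 1.10 (adjusted p = 9.75e-06, edgeR). Before any chromosome median was subtracted, the catalytic subunits moved apart, Prkaca to 0.24 and Prkacb to -0.29, and both passed. The receptor gene Adrb3, through which catecholamines raise lipolysis in mouse fat, was called higher at 1.42, from 4.14 to 11.0 CPM. The last 3 genes were chosen after their values were seen.

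Of 16 transcription factors known to act on these genes, 3 were higher and 2 lower. Epas1, which encodes HIF-2α, fell from 27.9 ± 5.82 to 6.17 ± 0.371 CPM (SD, n = 3 each), a change on the log2 scale of -2.18 (adjusted p = 5.87e-06, edgeR). Foxo3, a factor repressed by insulin signalling, rose by 0.79 and Srebf1, a regulator of lipid synthesis, by 0.28 on the log2 scale. Foxo3 lies on chromosome 10, whose genes had a median log2 fold change of 0.32. Pparg and Ppara, nuclear receptors that drive Plin2, Plin4 and Pnpla2 in other tissues and were chosen after their values were seen, were each under 1 CPM on average and did not pass.

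Among 20 targets of hypoxia-inducible factors, 19 were tested, 9 were higher and 3 lower, with a median of 0.22. Adm, which encodes a vasodilator peptide, rose from 5.46 ± 1.85 to 19.2 ± 2.48 CPM (SD, n = 3 each), a change on the log2 scale of 1.81 (adjusted p = 0.000176, edgeR). Ddit4, an inhibitor of mTORC1, rose by 0.69, or by 0.36 relative to the chromosome 10 median of 0.32. The glucose transporter gene Slc2a1 fell by 0.61, so that the targets did not move as one. Hilpda, itself such a target, was at 0.25 and did not pass. Among 20 targets of PPAR factors, 16 were tested, 6 were higher and 3 lower, with a median of 0.12. Cpt1a, which admits fatty acids to mitochondria, rose from 103 ± 6.79 to 187 ± 17.3 CPM (SD, n = 3 each), at 0.86 (adjusted p = 3.27e-05, edgeR). Relative to the chromosome 19 median of 0.19, Cpt1a was at 0.67. Ech1, an enzyme of fatty acid oxidation, rose by 0.59. Ucp2, a carrier of the inner mitochondrial membrane, fell from 108 ± 6.90 to 23.8 ± 3.74 CPM (SD, n = 3 each), at -2.18 (adjusted p = 6.40e-07, edgeR).

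The last list holds the genes that take up the products of lipolysis or have been placed at contacts between droplets and mitochondria. Of its 20 genes, 17 were tested, 1 was higher and 7 were lower, with a median of -0.25. Acsl4 and Acsl1, which activate free fatty acids to acyl-CoA, fell by 0.69 and by 0.72 on the log2 scale, and Acsl1 did so on chromosome 8, where the median gene was higher by 0.32. Acsl1 was at 166, 127 and 129 CPM in WT and at 98.0, 75.3 and 83.1 CPM in AS samples, without overlap. Vdac1, a channel of the outer mitochondrial membrane, fell by 0.33 with an adjusted p of 0.000968 in edgeR's test. The gene of this list that rose was Fabp5, a fatty acid binding protein, at 0.62. Mfn2, Snap23 and Fam73b (Miga2), which have been linked to such contacts, were among the 7 lower genes, at -0.21, -0.34 and -0.25. Fabp5 and these 3 were chosen after their values were seen, and 9 of the 17 tested genes of the list were not called.

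**Figure D5:**
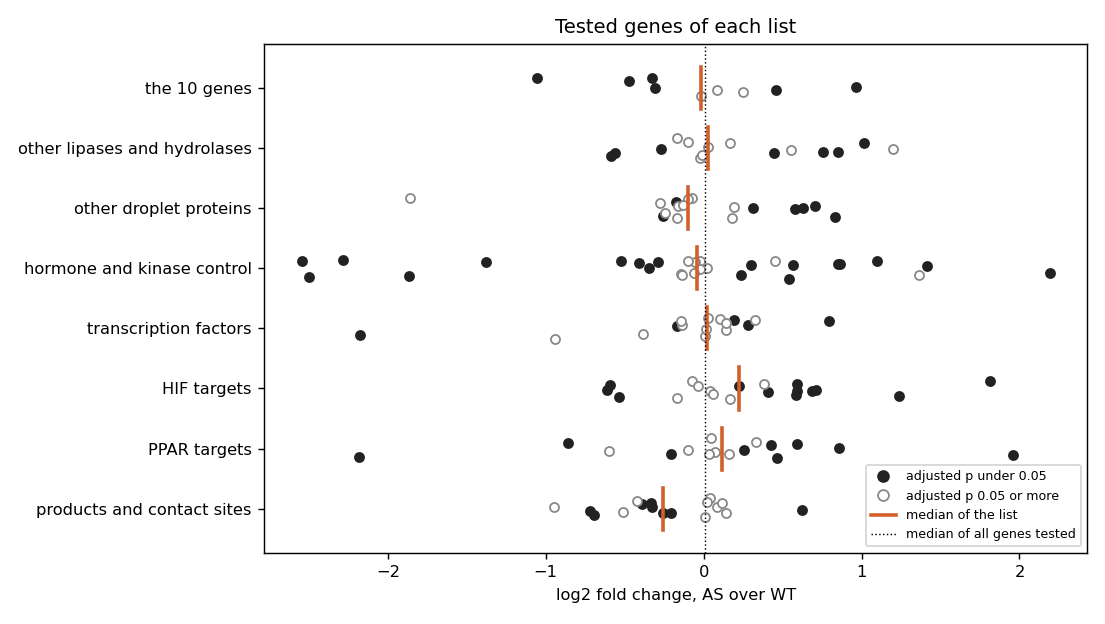
Log2 fold change of AS over WT podocytes for every tested gene of the 10 members and the 7 further lists, one row per list. Black points are called genes, open points are not, an orange bar marks the median of each list and the dotted line that of all genes tested. The medians lie between -0.25 for the product and contact genes and 0.22 for the targets of hypoxia-inducible factors.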

How the data were processed

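RNA was sequenced in 3 samples of WT and 3 of AS podocytes. The values the authors deposited are raw counts per gene, from mRNA libraries made with 15 cycles of PCR. The submitters' processing notes name FastQC, Trim Galore, STAR, edgeR and the build mm39, and the counting tool, annotation and strand setting were not given in the sources used here. GENCODE M21 (GRCm38) named 51880 of the 57132 identifiers and was used for names, chromosome, exon length and exon overlap only.

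Counts were filtered with filterByExpr at its defaults (a count of 10 and a total of 15 at least), scaled by TMM, then tested with the quasi-likelihood test of edgeR 4.0.16 in R 4.3.3, with genotype as the only term, two-sided and with Benjamini-Hochberg adjustment over all genes tested. limma 3.58.1 and DESeq2 1.42.0 were alternatives. Standard errors are approximate, from the fold change and its F statistic. Chromosome medians were taken over genes with a mean log2 CPM of at least 2. For values relative to a median, it was subtracted from the edgeR fold change. Their p-values come from a t-test with the approximate standard error, with Benjamini-Hochberg adjustment, and treat the median as known without error. Promoters are RefSeq windows on GRCm38.p6. The total counts lay between 45417221 and 54290968, and since no molecular identifiers are named, limits of detection cover counting error only.

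The members and the lists were chosen with earlier results of these data known, so no test was made over a list. Named genes were the members, Col4a3, Plin1, Plin5, Cidea, Cideb, Cidec, Pnpla3 and, from each list, the 3 tested genes lowest in adjusted p, and others are marked in the text. Cell type markers were read without a test. One podocyte marker is not reported here.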

Additional observations from a re-analysis of the deposited data

How the results depend on the processing

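The number of members called was 6 as reported and under all 13 alternatives that count calls, among them other scalings, DESeq2, limma-voom, other filters on low counts and each sample left out in turn, while the number of all genes called ranged from 5120 to 7066. Of 126 values of members under alternatives, 121 kept direction and side of the threshold. The sign of Lipe, which was not called, turned to 0.0084 with library size only and ranged from -0.093 to 0.062 with 1 sample left out. Ddhd2 lost its call and Hilpda gained one with chromosome medians removed, by the t-test with the approximate standard error, and the cause was not tested. Cideb passed under 6 alternatives, as at an adjusted p of 0.0319 in limma-voom, and its adjusted p ranged from 0.0141 to 0.148. The coat share of Plin2 was 93.0% in WT and 89.8% in AS podocytes with the longest transcript as length, and 87.2% and 81.7% with no length. The ratio of Abhd5 to Pnpla2 was 0.543 and 0.537 with the longest transcript and 0.652 and 0.646 with no length, and that of Hilpda to Pnpla2 was 0.0616 and 0.0906 with no length, since these choices rescale the genes by construction. Samples with the same set number deviated together weakly, with correlations of 0.147, 0.0939 and 0.0526. The other pairs lay between -0.130 and 0.0571, the highest being WT sample 3 with AS sample 2. Whether a set number pairs samples of the 2 lines cannot be told from these values and is not given by the labels. The test as reported did not pair them. With the replicate number as a block, 7066 genes, 6 members and 72 of the other pathway genes were called. Groups of 3 are too small to test single outlying samples, and levels near 0 counts (G0s2, Plin1, Plin5, Cidea, Cidec) limit any comparison of these genes.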
